A study of Mus musculus with 9 samples.

Results

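The Rab GTPases are the small GTP-binding proteins that mark the membranes of the secretory and endocytic pathways. Their genes were taken as those whose array symbol is Rab followed by a number and an optional letter, which leaves out proteins that only bind a Rab. This gave 57 Rab genes with 87 probes, among 16593 named genes with a probe. RNA had been measured in SVR cells, a mouse angiosarcoma line of transformed endothelial cells grown to confluence in monolayer. The groups were sham at 0 h, 50 µM propranolol at 4 h and 50 µM propranolol at 24 h, with 3 arrays each. Propranolol is a beta adrenergic receptor blocker, and it was dissolved in dimethyl sulfoxide for cultured cells. All groups share the line, the medium with fetal bovine serum and the array type. The labels give the dose used here, whereas the study's methods name a higher dose and a sham of the same duration for the arrays. With sham labelled as 0 h, the drug and the time in culture cannot be told apart. The methods also state that RNA of 3 biological replicates was pooled before the arrays, so the spread between arrays, and every p-value, measures hybridisation of pooled RNA and not variation between cultures.

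A Rab works as a switch. An exchange factor loads it with GTP on one membrane, the GTP form recruits effectors that move, tether or fuse the vesicle, and a GTPase-activating protein returns it to the GDP form, which a chaperone (GDI) extracts from the membrane. A lipid tail, added by a Rab prenyltransferase with the help of an escort protein, holds the Rab on the membrane, and since each Rab sits on its own compartments the family is often read as a map of the cell's traffic. In endothelial cells Rab proteins are known for the release of Weibel-Palade bodies and for the endocytosis and recycling of receptors and integrins.

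To be tested, a probe needed a detection p-value below 0.05 on each of the 3 arrays of some group, and the brightest tested probe stands for its gene. Levels are background-corrected, quantile-normalized signals on the log2 scale. A gene was called where limma's adjusted p was under 0.05 and the change was at least 1.5-fold. The arrays detected 11454 to 12245 of 25697 probes each. Mean raw intensity was 306.5 to 387.7 in sham, 326.6 to 373.2 at 4 h and 306.7 to 341.6 at 24 h. Of 15 endothelial marker genes with a probe, 12 were detected on all sham arrays and Kdr, Vwf and Erg were not, and the summed raw intensity of the list was 28575 to 33168 at 24 h against 13544 to 18305 in sham. The epithelial list summed to 440 to 503 at 24 h against 654 to 781 in sham, also without overlap, whereas the leukocyte sums (565 to 612 against 516 to 613) and the fibroblast and mural sums (698 to 748 against 665 to 766) overlapped. All these sums are without background correction and include undetected probes. Most leukocyte and most fibroblast and mural genes were not detected on all sham arrays, so the overlap does not show that those markers were unchanged. Of the markers of other cells, 1 of 6 leukocyte genes (Cd14), 1 of 4 epithelial genes (Krt19) and 2 of 7 fibroblast and mural genes (Pdgfra, Acta2) were detected on all sham arrays, while Ptprc, Cdh1 and Pdgfrb were not. On all 24 h arrays 13 endothelial, 1 leukocyte, 2 epithelial and 3 fibroblast and mural genes were detected. The epithelial sum thus fell while the number of its genes detected rose. The part of the endothelial and epithelial shifts in the results on Rab genes was not tested.

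At 24 h of propranolol, 5 of the 40 tested Rab genes were called, all higher than in sham, and none was called lower. Among all 7969 genes tested, 13.6% were called higher and 11.1% lower, or 24.7% in either direction, against 12.5% of the Rab genes. Rab15 and Rab43 met the detection filter only through treated arrays. With a limit of 2-fold, where 8.09% of all genes were called at 24 h, Rab3d passed, and Rab15 passed by a fitted value against undetected sham arrays but not by its bound, which lay below that limit. The 5 were Rab3d of regulated secretion, Rab15 of recycling endosomes, Rab29 of the Golgi and lysosome, Rab22a of early endosomes and Rab43 of the Golgi. The other 35 tested Rab genes lay between -0.50 and 0.48 on the log2 scale, and for 30 of the 40 the 95% interval of the change lay wholly inside 1.5-fold in either direction. The median log2 fold change was 0.10 over the Rab genes and -0.02 over all genes tested. In a bulk measurement, fewer cells and less RNA per cell cannot be told apart.

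Rab3d, which sits on secretory granules of exocrine and other secretory cells, had a normalized signal of 5.81, 5.63 and 5.80 in sham, 6.39, 6.36 and 6.32 at 4 h, and 7.09, 6.99 and 7.04 at 24 h. The 3 groups did not overlap and stood in the order of time. The raw intensities behind these values were low, at 223, 209 and 194 at 24 h against 137, 109 and 136 in sham. The log2 fold change at 24 h was 1.29 ± 0.07 (SE), with an adjusted p of 1.4e-07 by limma over all probes. Without the background correction it was 0.69, which still passed the call.

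Rab29, a Rab of the Golgi and lysosomes that in human cells recruits the kinase LRRK2 to membranes, measured 7.31, 7.30 and 7.40 in sham, 7.98, 8.07 and 7.85 at 4 h, and 8.08, 8.31 and 8.11 at 24 h. Every treated array stood above every sham array, and the arrays at 24 h began just above those at 4 h. The change at 24 h was 0.83 ± 0.08 on the log2 scale (adjusted p = 1.3e-05 by limma) and 0.62 without background correction.

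Rab22a, a relative of Rab5 that works in sorting from early endosomes, measured 7.11, 7.44 and 7.25 in sham, 7.67, 7.59 and 7.57 at 4 h, and 7.96, 8.06 and 7.98 at 24 h. The groups again did not overlap. Its change at 24 h was 0.73 ± 0.09 (adjusted p = 3.5e-05 by limma). A second tested probe of Rab22a gave 0.73 as well, and the third was not detected on any array. Without background correction the change of 0.54 fell short of the 1.5-fold limit.

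Rab15, which acts between early and recycling endosomes, was not detected on any array of sham or 4 h and was detected on all 3 at 24 h. Its normalized signal was 4.32, 4.36 and 4.43 in sham, 4.32, 4.48 and 4.31 at 4 h, and 5.67, 5.61 and 5.27 at 24 h. The undetected groups give only a bound. Setting each sham array at the higher of its lowest detected signal and the probe's own, Rab15 was at least 1.80-fold higher at 24 h than in sham on the background-corrected scale, and by the same rule at least 1.82-fold higher than at 4 h. These bounds hold on that scale only, since the uncorrected raw intensity averaged 91.7 in sham, 90.4 at 4 h and 119 at 24 h. The fitted log2 fold change against sham of 1.15 ± 0.10 (adjusted p = 6.0e-06 by limma) is no bound, and it was 0.39 (below 1.5-fold) without background correction. Since Rab15 entered the test only through its 24 h arrays, a call in the other direction could not have been made.

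Rab43, a Golgi Rab with a part in traffic from the endoplasmic reticulum, measured 4.94, 4.57 and 4.90 in sham, 5.38, 5.72 and 5.50 at 4 h, and 5.40, 5.61 and 5.26 at 24 h. The second sham array was below detection and every other array was detected, with raw intensities no higher than 124 among the 9. The 24 h arrays stood apart from sham and overlapped those of 4 h. The change of 0.62 ± 0.13 at 24 h (adjusted p = 0.0018 by limma) was the smallest of the 5 calls. Since Rab43 met the detection filter only through its treated arrays, a lower call could not have been made. The change dropped below 1.5-fold without the second sham array (0.51) and without the second 24 h array (0.52), and was 0.21 without background correction. The remaining 2 probes of Rab43 were not detected on any array.

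**Figure D1:**
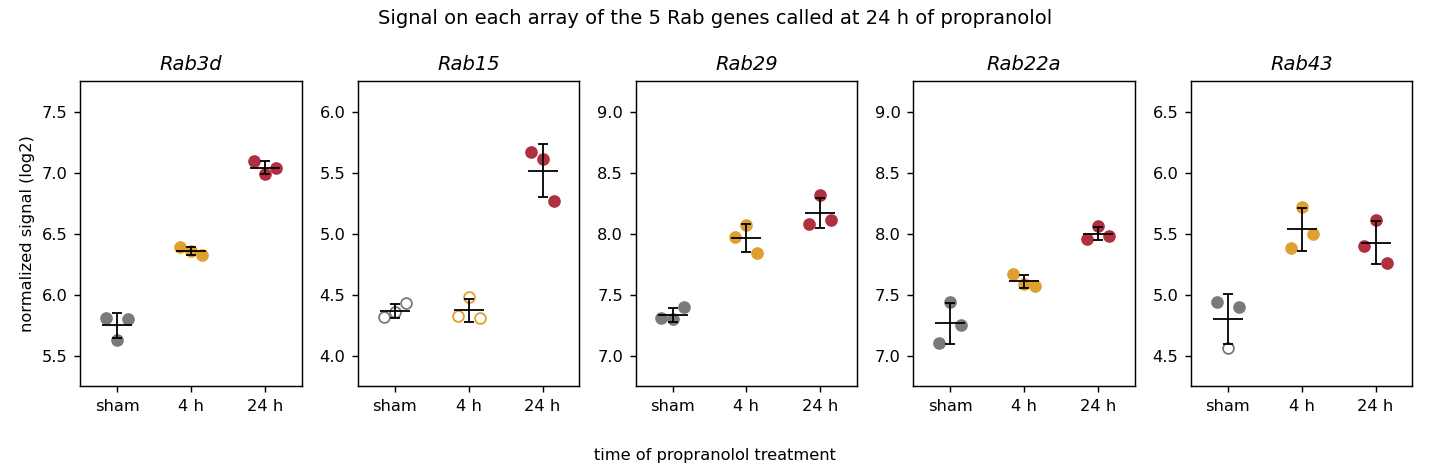
Normalized log2 signal (vertical axis) of the 5 called Rab genes on each of the 9 arrays, by group (horizontal axis: sham, 4 h and 24 h of propranolol). Filled points were detected and open points were not, and bars give the mean and SD of 3 arrays. Rab3d and Rab22a climb in 2 steps, Rab29 and Rab43 stand above sham at 4 h already, and Rab15 leaves the undetected range only at 24 h.

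Upstream sequence was available for 47 of the 57 Rab genes, 35 of them tested, as windows of 250 bases before and 50 after an annotated start (RefSeq, GRCm38.p6). The windows of the 3 called genes whose probes were detected on all 9 arrays are shown on the gene's strand. Capitals mark a match to TGACNNNGC, the core of the antioxidant response element, on either strand; Rab3d and Rab29 hold no match to any of the motifs searched. The windows lie at chr9:21918134-21918433 (minus strand) for Rab3d, chr1:131867027-131867326 (plus strand) for Rab29 and chr2:173659595-173659894 (plus strand) for Rab22a.
Rab3d: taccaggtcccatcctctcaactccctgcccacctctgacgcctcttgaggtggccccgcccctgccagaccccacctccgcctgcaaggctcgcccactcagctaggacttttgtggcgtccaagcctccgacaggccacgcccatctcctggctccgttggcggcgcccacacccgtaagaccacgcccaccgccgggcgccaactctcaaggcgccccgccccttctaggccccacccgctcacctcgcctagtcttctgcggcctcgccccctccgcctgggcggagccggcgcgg
Rab29: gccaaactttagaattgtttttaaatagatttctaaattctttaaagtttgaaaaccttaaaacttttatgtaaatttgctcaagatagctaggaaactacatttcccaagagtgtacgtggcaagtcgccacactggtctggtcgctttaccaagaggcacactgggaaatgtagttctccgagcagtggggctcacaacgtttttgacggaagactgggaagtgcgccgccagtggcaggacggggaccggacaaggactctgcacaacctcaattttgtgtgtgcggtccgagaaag
Rab22a: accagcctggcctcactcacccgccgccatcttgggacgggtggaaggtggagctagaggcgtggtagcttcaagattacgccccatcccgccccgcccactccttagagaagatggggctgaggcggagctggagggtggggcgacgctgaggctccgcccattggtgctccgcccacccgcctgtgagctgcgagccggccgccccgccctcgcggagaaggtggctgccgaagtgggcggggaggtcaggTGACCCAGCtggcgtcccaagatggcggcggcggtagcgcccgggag

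These windows differ in base composition. GC content was 71.0% in Rab3d and 70.7% in Rab22a, with 26 and 27 CpG dinucleotides, whereas the Rab29 window had 45.3% GC and 12 CpG. Over the 59 Rab windows the median GC content was 61.3%, against 52.7% in all 32851 windows, and the median number of CpG was 20 against 7. TGACNNNGC occurred in 16.9% of Rab windows and 12.4% of all windows, and the tested Rab genes that hold it were Rab22a, Rab24, Rab43, Rab4b, Rab7, Rab8a and Rab8b. CACGTG, the E-box read by MiT/TFE, MYC and USF factors, occurred in 10.2% of Rab windows and 7.15% of all windows. Its longer form TCACGTGA, which contains it, stood in 5.08% and 0.974%, at Rab21, Rab24 and Rab5a. The sterol response element TCACNCCAC was found in 1.69% against 1.24%, at Rab3a, and the ATF4 element TGATGNAA in 3.39% against 3.97%. A match is a run of letters in the window, windows of one gene can overlap, and the GC-rich composition of the Rab windows was not matched in this count.

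The adjusted p alone, with no fold limit, was under 0.05 for 17 Rab genes above sham and 6 below it at 24 h, that is 42.5% and 15% of the 40, against 30.4% and 30.4% of all genes tested. The 17 include Rab15 and Rab43, which met the detection filter only through treated arrays and could not have been counted as lower. The arrays of the groups did not overlap for 21 Rab genes higher and 8 lower at 24 h, where 33.1% and 33.3% of all genes were so separated.

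In the secretory branch 8 of 11 Rab genes were tested and 5 passed the adjusted p, all higher, where 30.4% of all genes were higher and 30.4% lower. Only Rab3d met the call, which is 12.5% of the 8 against 24.7% of all genes. Beside Rab3d the 5 that passed the adjusted p were Rab27b (0.44 on the log2 scale), Rab8b (0.35), Rab8a (0.32) and Rab27a (0.29). The raw intensities of Rab27b were low, averaging 122 at 24 h against 110 in sham. Without background correction its change was 0.16 and passed the adjusted p (0.012 by limma). Rab27a docks secretory granules and, in endothelial cells, Weibel-Palade bodies. It measured 7.03, 7.12 and 7.03 in sham, 7.31, 7.47 and 7.57 at 4 h, and 7.43, 7.33 and 7.29 at 24 h. Its treated arrays all stood above sham, and the change at 24 h was 0.29 ± 0.08 (adjusted p = 0.0092 by limma). Rab8a, which carries vesicles from the Golgi to the plasma membrane and cilium, measured 10.43, 10.32 and 10.38 in sham, 10.59, 10.53 and 10.53 at 4 h, and 10.79, 10.58 and 10.72 at 24 h. Its 24 h arrays lay above sham by 0.32 ± 0.07 (adjusted p = 0.0029 by limma) and its second probe gave 0.29. The change of Rab8a was 0.16 with median centring and 0.0921 with uncorrected intensities over the 75th percentile, both short of the adjusted p. Rab10 of post-Golgi carriers, at 0.36, had an interval of 0.03 to 0.69 and missed the adjusted p (0.055 by limma). Without background correction Rab10 was at 0.18 and passed it (adjusted p = 0.025 by limma). Rab3a of synaptic vesicles (0.02) and Rab13 of epithelial junctions (-0.09) were close to sham.

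Among Rabs of early endosomes, 5 of 7 were tested. Rab5a, which drives the fusion of early endosomes, measured 9.57, 9.59 and 9.65 in sham, 9.76, 9.89 and 9.90 at 4 h, and 9.92, 9.82 and 9.98 at 24 h. All treated arrays exceeded sham, by 0.30 ± 0.07 at 24 h (adjusted p = 0.0035 by limma), and a second probe gave 0.17 and missed the threshold. With the same median centring and percentile scaling Rab5a was at 0.19 and 0.12 and missed the adjusted p. Its paralog Rab5c did not move the same way. It measured 9.42, 9.60 and 9.23 in sham, 9.24, 9.21 and 9.32 at 4 h, and 9.41, 9.31 and 9.45 at 24 h, so that the groups overlapped and the change at 24 h was -0.03 ± 0.09. Rab31, a close relative of Rab22a, rose by 0.21, and Rab21, which takes integrins into the cell, fell by 0.20.

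Of the recycling Rabs 7 of 8 were tested, and beside Rab15 only Rab4b, of the rapid route back to the surface, passed the adjusted p (0.48, adjusted p = 7.3e-04 by limma). The raw intensities of Rab4b were low, averaging 136 at 24 h against 118 in sham. Without background correction its change was 0.20 and passed the adjusted p (0.0016 by limma). Its paralog Rab4a was at -0.02. Rab11a, the marker of the slower recycling endosome, measured 6.31, 5.81 and 5.85 in sham, 5.72, 5.44 and 5.69 at 4 h, and 6.09, 6.08 and 6.05 at 24 h. Its first sham array stood well above the other 2 sham arrays, and the 24 h change of 0.08 ± 0.13 was within that spread. Rab11b measured 12.00, 12.08 and 12.11 in sham, 12.00, 11.96 and 11.92 at 4 h, and 11.89, 11.84 and 12.02 at 24 h. That is a change of -0.15 ± 0.07 at 24 h, which missed the adjusted p (0.089 by limma). Without background correction Rab11b was at -0.14 and passed it (adjusted p = 0.030 by limma). Rab14 (0.02) and Rab35 (-0.13) missed the threshold.

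The late endosome, lysosome and autophagy class moved in both directions. Rab7, which brings late endosomes and autophagosomes to fusion with lysosomes, measured 9.84, 9.76 and 9.74 in sham, 9.91, 9.80 and 9.86 at 4 h, and 10.02, 10.15 and 10.05 at 24 h. The 24 h arrays lay above sham by 0.29 ± 0.07 (adjusted p = 0.0030 by limma), but the other 2 tested probes of Rab7 gave -0.04 and -0.08, the widest disagreement among the 13 Rab genes with several tested probes. The mean of its probes (0.0596), median centring (0.16) and percentile scaling (0.0895) each missed the adjusted p. Rab12, which directs the transferrin receptor to lysosomes in mouse cells, had the most negative log2 fold change of the family. It measured 8.40, 8.18 and 8.38 in sham, 8.46, 8.22 and 8.65 at 4 h, and 7.85, 7.70 and 7.91 at 24 h, and the 24 h arrays lay below all others. It fell by 0.50 at 24 h against sham (SE 0.11, adjusted p = 0.0029 by limma). Rab7b, of transport from late endosomes to the Golgi, fell by 0.37. Rab9, of the return of mannose 6-phosphate receptors, measured 5.71, 5.84 and 5.80 in sham, 6.10, 6.31 and 6.24 at 4 h, and 5.90, 5.90 and 5.93 at 24 h, so that it was highest at 4 h and 0.13 ± 0.07 above sham at 24 h (adjusted p = 0.14 by limma). Rab24, linked to autophagy, was at 0.10 and missed the threshold.

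Between the endoplasmic reticulum and Golgi 10 of 16 Rab genes were tested. The paralogs Rab1a and Rab1b, which both act in transport to the Golgi, went opposite ways at 24 h. Rab1a measured 8.38, 8.34 and 8.45 in sham, 8.39, 8.35 and 8.32 at 4 h, and 8.68, 8.54 and 8.74 at 24 h, a rise of 0.27 ± 0.07 (adjusted p = 0.0070 by limma). Rab1b measured 9.74, 9.71 and 9.78 in sham, 9.63, 9.79 and 9.66 at 4 h, and 9.55, 9.33 and 9.45 at 24 h, and fell by 0.30 (SE 0.07, adjusted p = 0.0059 by limma). The groups at 24 h and sham did not overlap for either gene, although a second tested probe of Rab1b was at -0.01 and the mean of its 2 tested probes, -0.15, missed the adjusted p. Rab1a missed it with median centring (0.26). Rab34, of the Golgi and cilium, fell by 0.42, with its other 2 probes at -0.49 and -0.51, and Rab39b, a Rab known from neurons, had a fitted change of -0.32. Rab39b was detected on 2 of 3 arrays at 24 h, and without background correction its change was -0.10 and missed the adjusted p. Rab33b, a Golgi Rab that binds the autophagy protein Atg16l1, and Rab18, of the endoplasmic reticulum and lipid droplets, rose by 0.45 and 0.26.

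Rab2a, on carriers between these compartments, measured 11.46, 11.37 and 11.44 in sham, 11.45, 11.48 and 11.44 at 4 h, and 11.57, 11.51 and 11.49 at 24 h, with a change of 0.10 ± 0.06 at 24 h (adjusted p = 0.15 by limma). Rab6a, of retrograde transport through the Golgi, measured 9.16, 9.14 and 9.14 in sham, 8.83, 8.72 and 8.82 at 4 h, and 9.10, 9.20 and 9.16 at 24 h. On its brightest probe the level of Rab6a was thus lower at 4 h only, and the 24 h change was 0.01 ± 0.06. The 3 tested probes of Rab6a differed in sign at 24 h. Rab6b was at 0.05.

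Rab32, which with Rab38 builds lysosome-related organelles such as melanosomes, measured 8.53, 8.56 and 8.45 in sham, 8.69, 8.63 and 8.62 at 4 h, and 8.77, 8.95 and 8.77 at 24 h, a rise of 0.32 ± 0.07 (adjusted p = 0.0028 by limma). Rab38 was not detected on enough arrays to be tested. Rab28 (0.05) and Rab23 (-0.14), of the cilium and hedgehog signalling, and Rab40c (-0.03), an adaptor of a ubiquitin ligase, missed the threshold at 24 h.

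The 17 Rab genes that were not tested were Rab17, Rab19, Rab20, Rab25, Rab2b, Rab30, Rab33a, Rab36, Rab37, Rab38, Rab39, Rab3b, Rab3c, Rab40b, Rab42, Rab44 and Rab9b. On none of their probes read here did the raw intensity exceed 107.3 on any array, and 10 of them were undetected on all 9 arrays with every probe. Among the tested genes, 37 were detected on all 9 arrays, the exceptions being Rab15, Rab39b and Rab43.

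**Figure D2:**
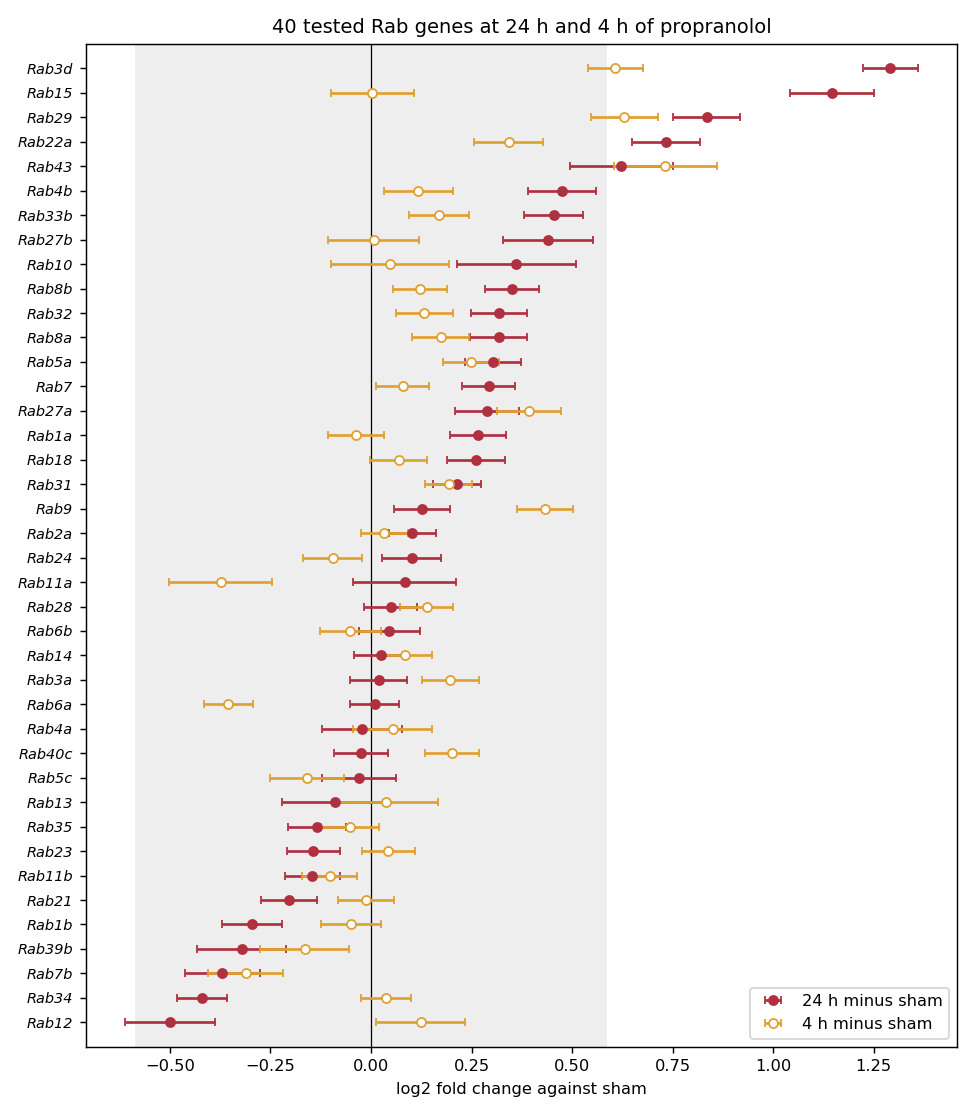
Log2 fold change against sham (horizontal axis) of the 40 tested Rab genes (vertical axis, ordered by the 24 h value) at 24 h (filled) and 4 h (open), with the standard error from limma as bars. The grey band marks changes under 1.5-fold. Rab3d, Rab15, Rab29, Rab22a and Rab43 lie to its right at 24 h, and no point lies to its left.

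Without the background correction, 2 of the 40 Rab genes were called at 24 h (Rab29 and Rab3d), against 7.70% of all genes higher and 5.66% lower. No Rab gene was called without the step at 4 h (0.715% of all genes higher and 0.828% lower) or between 24 h and 4 h (5.78% and 3.51%). The standing of a gene at the 1.5-fold limit therefore differed with the step. The sign of the change at 24 h was the same for each of the 5 called genes, but it could not have turned. Their 24 h and sham arrays did not overlap, and both ways of processing keep the order of probes on an array and give equal ranks equal values.

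**Figure D3:**
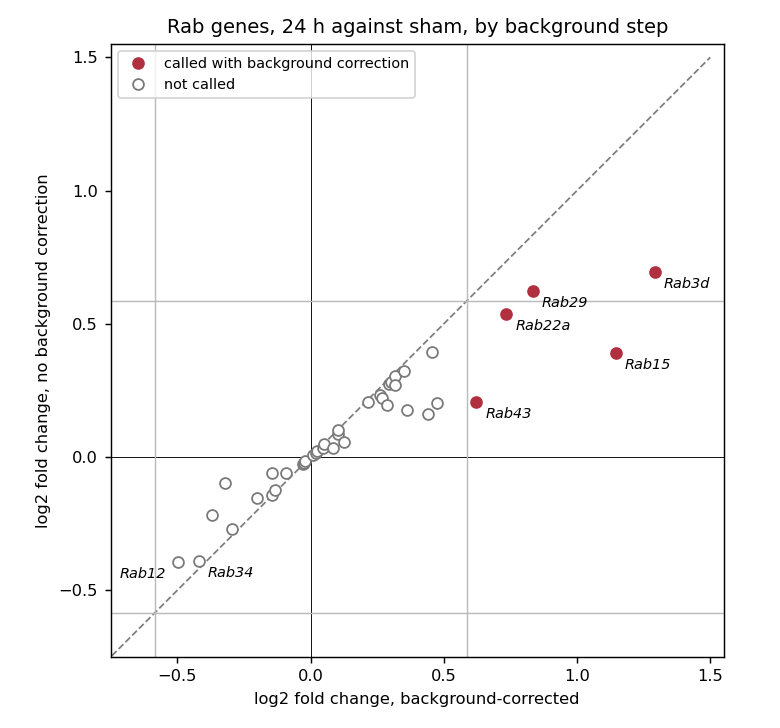
Log2 fold change of the 40 tested Rab genes at 24 h against sham with background correction (horizontal axis) and without it (vertical axis). Grey lines mark 1.5-fold, the dashed line marks equal values, and filled points are the 5 genes called with the correction. Rab15 and Rab43 drop to 0.39 and 0.21 without it.

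At 4 h of propranolol 3 of the 40 tested Rab genes were called higher than in sham and none lower, where 4.05% of all genes were called (2.05% higher and 2.01% lower). At 2-fold no Rab gene was called at 4 h, where 0.715% of all genes were. The 3 were Rab43, which could not have been called lower (0.73 ± 0.13, adjusted p = 0.0029), Rab29 (0.63 ± 0.08, adjusted p = 6.2e-04) and Rab3d (0.61 ± 0.07, adjusted p = 2.3e-04), by limma. All 3 are among the genes called at 24 h, and since both comparisons use the same sham arrays this is no independent count. Rab29 lost the call without the second 4 h array (0.58) and Rab3d without the second sham array (0.55). With no fold limit 8 Rab genes were higher and 2 lower at 4 h, against 13.1% and 11.5% of all genes. The 8 were the 3 called genes with Rab9 (0.43), Rab27a (0.39), Rab22a (0.34), Rab5a (0.25) and Rab31 (0.19), and the 2 were Rab6a (-0.36) and Rab7b (-0.31).

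Directly between the treated groups, 2 Rab genes were called higher and 1 lower at 24 h than at 4 h, where 18.0% of all genes were called (10.6% higher and 7.40% lower). With a limit of 2-fold, which 5.56% of all genes passed, only the fitted value of Rab15 did so, and its bound did not. The arrays of the 2 times did not overlap for 17 Rab genes higher and 7 lower, against 29.5% and 33.1% of all genes. After background correction Rab15, undetected at 4 h, was at least 1.82-fold higher at 24 h, a bound that carries no test. The adjusted p of 9.1e-06 by limma belongs to its fitted difference. Rab3d was higher by 0.68 ± 0.07 (adjusted p = 1.8e-05) and Rab12 fell by 0.62 (SE 0.11, adjusted p = 8.8e-04), by limma. The call of Rab12 was lost without the third 4 h array (-0.52) and without the second 24 h array (-0.57). Without the fold limit, 14 Rab genes were higher and 7 lower at 24 h than at 4 h, against 26.2% and 28.7% of all genes. Rab6a (0.36) and Rab11a (0.46) were in the first set and Rab9 (-0.31) in the second. For these 3 genes the value at 24 h was closer to sham than the value at 4 h.

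The proteins that act on Rabs changed as follows at 24 h. Of the prenylation and GDP-form chaperone genes, 7 of 9 were tested, with 1 called higher and 1 lower, where 13.6% and 11.1% of all genes were. Rabac1, the prenylated Rab acceptor of the Golgi, had raw intensities of 1881, 2027 and 1598 at 24 h against 1215, 976 and 1246 in sham, and rose by 0.91 ± 0.07. Rabggta, the alpha subunit of the enzyme that adds the lipid tail, had 213, 223 and 191 at 24 h against 290, 274 and 326 in sham, and fell by 0.74 (SE 0.09), a call lost without background correction (-0.52). The arrays of both genes were fully apart, and the beta subunit gene Rabggtb was at 0.01.

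Exchange factors were called higher in 5 of 27 tested genes and lower in none, where 13.6% and 11.1% of all genes were. Without background correction 3 were called, where 7.70% of all genes were higher. Dennd3, an exchange factor known in mammalian cells to act on Rab12, had raw intensities of 579, 597 and 539 at 24 h against 213, 171 and 238 in sham, and rose by 1.93 ± 0.08 (adjusted p = 2.1e-08 by limma). Rin2 and Rabgef1, which act on the Rab5 group, rose by 1.09 and 0.77, and Als2cl by 0.73. The median of the list was 0.18.

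Of 25 tested genes for GTPase-activating proteins of the TBC and Rab3GAP families, 3 were called higher and none lower, or 12.0%, where 13.6% of all genes were called higher and 11.1% lower. Sgsm1 had raw intensities of 270, 269 and 237 at 24 h against 154, 122 and 156 in sham and rose by 1.37 ± 0.07, while Rabgap1 and Sgsm3 rose by 0.68 and 0.66. The median was 0.21. Sgsm1 was also called at 4 h, at 0.74. Without background correction 2 genes of the list were called at 24 h, where 7.70% of all genes were higher. None of the list was called at 4 h without that step, where 0.715% of all genes were higher.

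Among 31 tested effector genes, 8 were called higher and none lower, which is 25.8% of the list, where 13.6% of all genes were called higher and 11.1% lower. Without background correction 4 were called, where 7.70% of all genes were higher. Plekhm1, which links Rab7 to the HOPS tether, had raw intensities of 327, 342 and 291 at 24 h against 224, 159 and 203 in sham and rose by 1.02 ± 0.10. Rab11fip5, which binds Rab11, rose by 0.95, Ehbp1l1, which binds Rab8, by 0.94, and Lrrk2, the kinase that phosphorylates Rabs such as Rab8 and Rab10, by 0.84. The median of the effectors was 0.32.

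On the list for the HOPS and CORVET complexes, which tether late and early endosomes for fusion, 8 genes had a named probe. All 8 were tested and had a positive value at 24 h, as did 3858 of 7969 genes, with a list median of 0.43. By the adjusted p alone 7 of the 8 rose, where 30.4% of all genes did, and 1 was called, Vps11 at 0.69 ± 0.09, with raw intensities of 470, 423 and 380 at 24 h against 310, 233 and 346 in sham. Vps11 was the one called at 4 h too (0.61). Without background correction it was at 0.54 and 0.48 and was not called at either time.

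**Figure D4:**
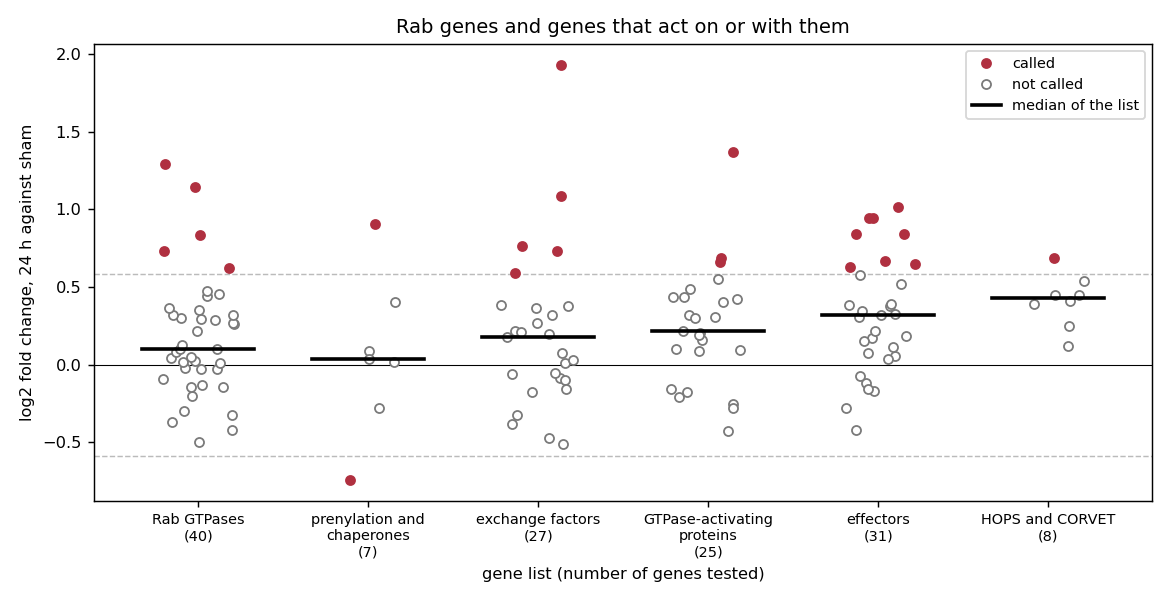
Log2 fold change at 24 h against sham (vertical axis) of each tested gene of the Rab family and of 5 lists of genes that act on or with Rabs (horizontal axis, number tested in brackets). Filled points were called, dashed lines mark 1.5-fold and thick bars the list medians, which run from 0.04 for prenylation and chaperones to 0.43 for HOPS and CORVET, with 0.10 for the Rab genes.

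Another family of small GTPases in membrane traffic gave these counts at 24 h. Of 14 tested genes for ARF, ARL and SAR proteins, which act in vesicle formation, 1 was called higher (Arl11, 1.25) and 1 lower (Arfrp1, -0.81), which is 14.3% of the list against 24.7% of all genes. The median was 0.02. No test of a difference between this family and the Rab genes was made.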

How the data were processed

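Labelled RNA from 9 samples was hybridised to Illumina mouse bead arrays. The authors deposited, per array and probe, a bead intensity before normalization with its detection p-value, and a second table of normalized intensity used here as an alternative; the deposited intensity carries no read depth, so the number of arrays limits the precision. Arrays were read on an Illumina iSCAN per the study's methods. Its software version is not used here.

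Intensities were corrected for background with detection p-values, quantile-normalized and put on the log2 scale (neqc of limma 3.58.1 in R 4.3.3, offset 16). Probes were named from GEO's platform annotation. Of 25697 probes 23978 had a gene name and 11653 were tested, 662 of them unnamed. A linear model over all 9 arrays with 3 groups was fitted with lmFit and eBayes, and p-values were adjusted by Benjamini-Hochberg over all tested probes. Levels are compared between groups for one probe, never between probes. In simulated data for 24 h against sham over 11653 probes, the call recovered 42 of 100 probes changed 1.5-fold and 98 of 100 changed 2-fold, and 2 of 11453 unchanged ones. The 1.5-fold probes were set at the limit of the call itself, and 79 of the 100 passed the adjusted p. A smaller share of probes was changed than passed the adjusted p in the data, so these rates need not hold there. A permutation test of 3 arrays against 3 cannot go below 0.1 (two-sided, exact), so none is quoted.

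Rab genes named with values on each array were all those called at 24 h or 4 h against sham and a fixed set of organelle markers, and for each list of regulators the 4 called genes with the largest change. Rab12 was shown on each array after its values were seen. The members and lists were chosen with earlier results of these data known. Alternatives changed the background step, normalization, filter, probe rule, fold limit, test, blocks and arrays included. RefSeq has 59 Rab genes by the rule, and Rab5b and Rab26 had no named probe here. The counts for 1 further comparison list are not reported here.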

Additional observations from a re-analysis of the deposited data

Results flagged for a closer look

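For 3 Rab genes the change from sham at 24 h differed from that at 4 h, tested as the difference between the treated groups with limma over all probes. Rab15 had a fitted difference of 1.14 on the log2 scale (adjusted p = 9.1e-06), which is no measured fold because none of its arrays was detected at 4 h, and after background correction the 24 h level exceeded that at 4 h by at least 1.82-fold. It met the detection filter only through 24 h. Rab3d was higher at 24 h by 0.68 (adjusted p = 1.8e-05). Rab12 had a difference of -0.62 (adjusted p = 8.8e-04). The groups did not overlap for any of the 3, where 29.5% of all genes were so separated higher and 33.1% lower.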

How the results depend on the processing

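Over all settings the count of 5 Rab genes called at 24 h against sham ranged from 2 to 6. It became 2 without background correction, 3 in the authors' normalized table, 2 with uncorrected intensities over the 75th percentile and 2 with a 2-fold limit. The 3 called at 4 h became 0 under each of these 4 settings, and the 3 called between 24 h and 4 h became 0, 0, 0 and 1. Calls over all genes fell too, from 24.7% at 24 h to 8.09% with the 2-fold limit. Without background correction 7.70% were higher and 5.66% lower at 24 h. Leaving out 1 array gave 4 to 5 calls at 24 h, 2 to 3 at 4 h and 2 to 3 between the treated groups. The median Rab change of 0.10 at 24 h was 0.0702 without background correction, 0.0964 with median centring, 0.157 in the authors' table, 0.0018 over the 75th percentile, 0.029 without a detection filter, 0.072 when the tested probes of a gene were averaged, 0.106 with the BeadChip as a block, and 0.0956 to 0.112 with 1 array left out. Rab1a, Rab5a, Rab7 and Rab8a missed the adjusted p at 24 h with median centring, Rab5a, Rab7 and Rab8a also over the 75th percentile, and Rab1b and Rab7 with averaged probes. Over the 75th percentile Rab27a was at 0.17, Rab32 at 0.19 and Rab1a at 0.15, and all 3 passed. In the other direction, Rab9, Rab10, Rab11a and Rab11b missed the adjusted p at 24 h in the main setting, and each passed it in some alternative. Some changes near 0 turned sign at 24 h. Rab2a was -0.0317 with median centring and -0.0915 over the 75th percentile, Rab6a was -0.0204 and -0.0824 under these and -0.0537 with averaged probes, and Rab5c was 0.012 in the authors' table. With 1 array left out Rab11a ranged from -0.0064 to 0.245, Rab5c from -0.121 to 0.0602 and Rab6a from -0.0149 to 0.0355. The methods' test, run between 2 groups at a time without moderation of the spread, called at 2-fold 2 Rab genes at 24 h, 0 at 4 h and 1 between treated groups after Benjamini-Hochberg adjustment. Of all 7969 genes it called 644, 57 and 443 in these comparisons. The cause of these shifts was not tested.

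Replicate numbers in the labels carried no pairing: deviations of same-numbered arrays correlated at -0.02 to 0.006. With the replicate block the counts were 5, 3 and 3. The third 24 h array lay on a BeadChip of its own, and without it the count at 24 h was still 5.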
